A study of Rattus norvegicus with 10 samples.

Results

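The genes described here are 33 markers of the brain vasculature, of which 21 belong to endothelial cells, 9 to mural cells (6 to pericytes and 3 to vascular smooth muscle) and 3 to the extracellular matrix of the vessel wall. They were taken by symbol from a list; 32 of the 33 had a row in the deposited tables of 17168 genes, all 32 passed the filter on low counts, and Col4a2 was not analysed here. The samples were left hippocampi of 10 male TgF344-AD rats aged 11 months, a transgenic line used as a model of Alzheimer's disease, with transgenes driven by a prion promoter. The 5 untreated rats ate plain chow, and the 5 RG2833 rats ate chow with 750 mg of RG2833 per kg, a compound that inhibits the histone deacetylases HDAC1 and HDAC3, from 5 months of age for 6 months. The rats of both groups were perfused with saline before dissection, and each library came from 1 rat. No wild-type rat was analysed here, so every comparison is among transgenic males. In 1 place the design text names ibudilast as the drug; the treatment label of every sample names RG2833 or no treatment.

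Brain capillaries are lined by endothelial cells that are sealed to each other by tight junctions and carry specialised transporters, and these properties make up the blood-brain barrier. Pericytes sit on the capillary wall and smooth muscle cells wrap the arterioles; together they are called mural cells, and both rest in a basement membrane of type IV collagen, laminin and fibronectin. Endothelial growth and stability are controlled by VEGF, angiopoietin, TGF-beta and Notch signals, and pericytes are recruited through PDGF-B acting on PDGFRB. In brain, endothelial and mural transcripts are a small part of all RNA, and in a bulk sample fewer cells of a type and less RNA per cell cannot be told apart.

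All libraries were deep enough to count every member. Total expected counts ran from 15984438 to 18533520 in untreated and from 15118203 to 17395662 in RG2833 libraries, and the 32 measured members had from 42 to 4208 expected counts each. Below, levels are CPM, a gene's reads as a share of its library, with libraries brought to one scale by edgeR's TMM method, and the level of 1 gene is not compared with that of another; sums and means over a list of genes are compared only between libraries. For 6 members (Ocln, Abcb1a, Sox18, Nos3, Abcc9 and Acta2) some counts were not whole, so part of their reads was divided with other transcripts, and their values are uncertain to that extent. Abcb1b, a near copy of Abcb1a that was added after its values were seen, was in the table at 1.43 to 12.5 CPM. It was lowest in untreated replicate 3 (1.43 CPM) and RG2833 replicate 5 (4.29 CPM), where Abcb1a was highest (108.1 and 120.3 CPM). Some libraries stood apart in composition. Untreated replicate 2 and RG2833 replicate 1 held 11014 and 11921 summed CPM of 13 choroid plexus markers, against 112 to 473 in the other 8 libraries. Untreated replicate 3 had 4.30 CPM of Prox1, a marker of dentate granule neurons, against 21.5 to 50.5 in the other 9. Prox1 was chosen after its values were seen; Zbtb20, which granule neurons also make and which was added with it, was at 36.7 CPM there and at 51.0 to 68.4 CPM in the others.

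No vascular gene differed past the threshold between the treated and the untreated animals. By edgeR's quasi-likelihood test with Benjamini-Hochberg adjustment, 0 of the 32 members had an adjusted p under 0.05, as did 0 (0%) of all 12161 genes tested, and the smallest adjusted p among the members was 0.841. Without adjustment, 0 members had a p under 0.05 and were higher in RG2833, where 2.94% of all genes were, and 1 lower (Tagln), where 2.71% were; over both directions the share of all genes was 5.66%. For 0 of the 32 members did the groups fail to overlap in CPM, against 1.00% of all genes. The fitted log2 fold change was above 0 for 24 of 32 members, with a median of 0.13, and above 0 for 46.5% of all genes, whose median was -0.01. The members go up and down together from library to library, as shown further on, so this count is not one of 32 independent genes. In DESeq2, 7 of all genes and 0 members had an adjusted p under 0.05.

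**Figure D1:**
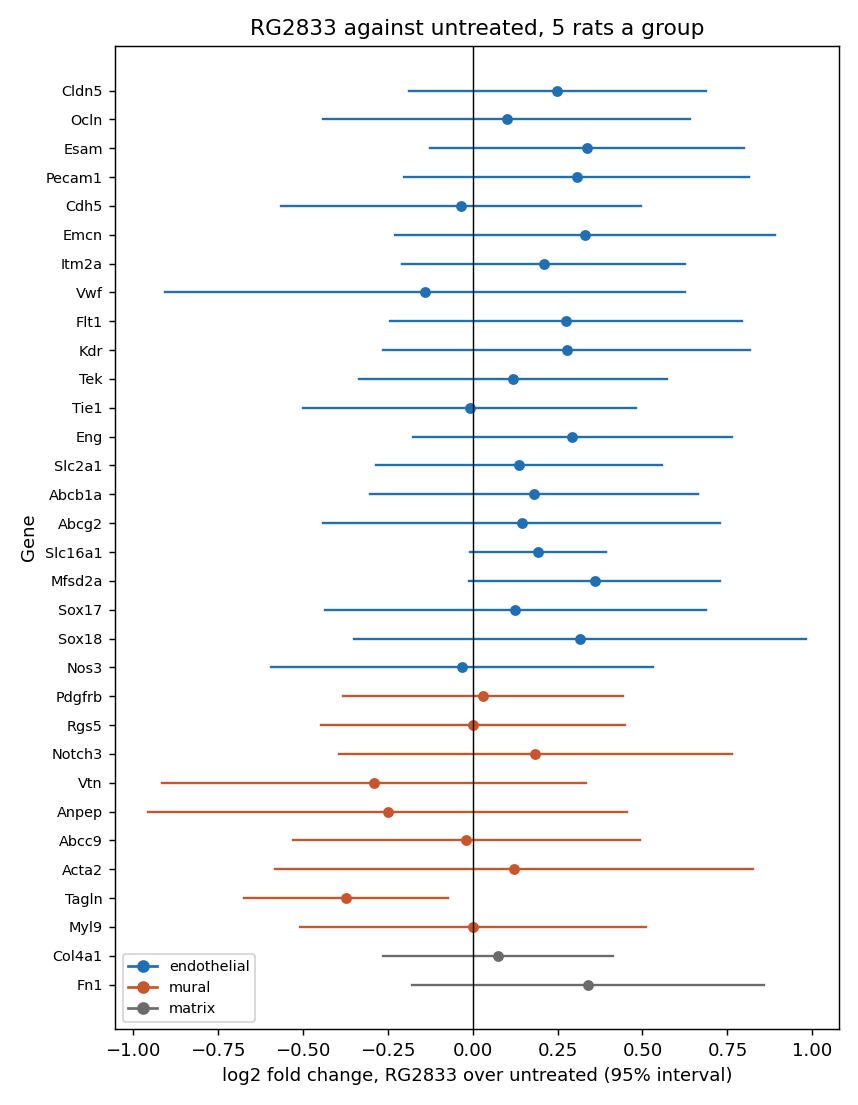
Log2 fold change of RG2833 over untreated for each of the 32 measured members (x axis; points are edgeR estimates and lines their 95% intervals, 5 rats a group), coloured by vessel cell class. Of the 21 endothelial estimates 17 lie above 0, the mural estimates lie on both sides, and only the interval of Tagln leaves 0 out.

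The endothelial junction and surface genes had a median log2 fold change of 0.23, with 6 of 8 above 0. Cldn5, the main claudin of the barrier's tight junctions, was at 82.7, 93.9, 148.0, 91.0 and 94.7 CPM in untreated replicates 1 to 5 and at 87.3, 119.4, 98.2, 137.5 and 164.1 CPM in RG2833 replicates 1 to 5. Untreated replicate 3 lay among the high RG2833 libraries, RG2833 replicate 1 lay among the low untreated ones, and the groups overlapped. The means were 102.1 ± 26.1 and 121.3 ± 30.8 CPM (SD, n = 5 each), which is 0.25 in log2 fold change (SE 0.20, 95% interval -0.19 to 0.69; edgeR adjusted p = 0.904). Esam and Pecam1, adhesion molecules of endothelial contacts, had log2 fold changes of 0.34 (SE 0.21) and 0.31 (SE 0.23). Emcn, a mucin of venous and capillary endothelium, had 0.33 (SE 0.25), and Itm2a, a membrane protein enriched in brain endothelium, had 0.21 (SE 0.19). In each of these genes untreated replicate 3 was the highest untreated library. The estimates were lowest without RG2833 replicate 5 and highest without untreated replicate 3, at 0.12 to 0.42 for Cldn5, 0.20 to 0.53 for Esam, 0.17 to 0.54 for Pecam1, 0.10 to 0.50 for Emcn and 0.12 to 0.40 for Itm2a.

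The remaining junction and surface genes had another high library. Cdh5, the adherens junction cadherin of endothelium, was at 9.58, 21.3, 20.9, 12.2 and 11.6 CPM in untreated rats and at 13.3, 12.7, 11.96, 16.7 and 19.2 CPM in treated rats (fold change on the log2 scale -0.03, SE 0.24). Untreated replicates 2 and 3 were both above every RG2833 library. Ocln, a tight junction protein that epithelia make as well, was at 14.7, 33.2, 31.04, 20.9 and 17.05 CPM in untreated rats and at 31.9, 22.6, 17.1, 24.9 and 28.9 CPM in treated rats (fold change on the log2 scale 0.10, SE 0.24). Its highest value in each group was in the library rich in choroid plexus markers. Vwf, the clotting protein stored by endothelium and most abundant in larger vessels, was at 58.5, 185.8, 113.0, 75.1 and 64.4 CPM in untreated rats and at 64.3, 74.7, 65.7, 97.3 and 149.4 CPM in treated rats. Untreated replicate 2 and RG2833 replicate 5 were high, and the log2 fold change was -0.14 (SE 0.35); without untreated replicate 2 it was 0.22.

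The receptor genes had a median log2 fold change of 0.27, with 4 of 5 above 0. Flt1, which codes for VEGF receptor VEGFR1, was at 59.8, 71.8, 122.9, 76.4 and 69.9 CPM in untreated rats and at 76.8, 76.5, 74.6, 116.1 and 140.9 CPM in treated rats (fold change on the log2 scale 0.27, SE 0.23, 95% interval -0.24 to 0.79; edgeR adjusted p = 0.915). Untreated replicate 3 and RG2833 replicates 4 and 5 were all at 116.1 CPM or more and the other 7 libraries at 76.8 or less. Kdr, the main signalling receptor for VEGF, was at 14.9, 24.8, 27.9, 13.8 and 13.3 CPM in untreated rats and at 24.1, 16.4, 19.8, 23.5 and 31.3 CPM in treated rats (fold change on the log2 scale 0.28, SE 0.24). Eng, a TGF-beta co-receptor, ranged over 36.9 to 75.5 CPM untreated and 50.4 to 77.7 CPM treated (difference 0.29 log2 units, SE 0.21). The angiopoietin receptor Tek was at 27.3 to 50.1 CPM in untreated rats and 29.6 to 52.2 CPM in treated rats (fold change on the log2 scale 0.12, SE 0.21). Its partner Tie1 was at 21.5 to 49.5 and 25.8 to 41.4 CPM, with the highest value in untreated replicate 3 (log2 fold change -0.01, SE 0.22). With each library left out in turn, the estimates ran from 0.10 to 0.48 for Flt1, 0.15 to 0.46 for Kdr and 0.19 to 0.50 for Eng.

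The start regions of 5 members that were high together in untreated replicate 3 and RG2833 replicate 5 are shown to let their letters be compared, 4 of endothelium and 1, Notch3, of pericytes. They are RefSeq sequences of the GRCr8 build, from 250 bases before to 50 bases after the annotated gene start, read along the gene's strand. The word AGGAAG, which holds the GGAA core bound by ETS factors, was searched on both strands and is in capitals (CTTCCT where it lies on the other strand). These windows are Flt1 at chr12:12333180-12333479 (+), Eng at chr3:36332029-36332328 (+), Tie1 at chr5:137304932-137305231 (-), Cldn5 at chr11:95718549-95718848 (-) and Notch3 at chr7:11834536-11834835 (-).
Flt1: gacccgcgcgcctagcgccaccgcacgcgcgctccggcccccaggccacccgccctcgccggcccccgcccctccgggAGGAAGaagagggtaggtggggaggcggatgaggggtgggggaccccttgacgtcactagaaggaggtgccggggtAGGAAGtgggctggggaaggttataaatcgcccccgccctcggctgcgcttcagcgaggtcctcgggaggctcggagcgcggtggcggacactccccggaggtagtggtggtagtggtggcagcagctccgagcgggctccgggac
Eng: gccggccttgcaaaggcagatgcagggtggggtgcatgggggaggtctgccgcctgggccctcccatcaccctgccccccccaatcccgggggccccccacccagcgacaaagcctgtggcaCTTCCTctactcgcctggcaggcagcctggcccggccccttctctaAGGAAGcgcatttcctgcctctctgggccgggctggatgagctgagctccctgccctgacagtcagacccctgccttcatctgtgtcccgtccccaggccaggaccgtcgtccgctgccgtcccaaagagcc
Tie1: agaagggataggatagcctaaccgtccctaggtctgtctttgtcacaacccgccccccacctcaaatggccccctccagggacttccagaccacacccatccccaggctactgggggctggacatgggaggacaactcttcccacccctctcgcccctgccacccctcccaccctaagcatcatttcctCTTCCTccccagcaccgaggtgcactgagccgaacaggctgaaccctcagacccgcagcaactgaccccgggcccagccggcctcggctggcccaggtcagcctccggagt
Cldn5: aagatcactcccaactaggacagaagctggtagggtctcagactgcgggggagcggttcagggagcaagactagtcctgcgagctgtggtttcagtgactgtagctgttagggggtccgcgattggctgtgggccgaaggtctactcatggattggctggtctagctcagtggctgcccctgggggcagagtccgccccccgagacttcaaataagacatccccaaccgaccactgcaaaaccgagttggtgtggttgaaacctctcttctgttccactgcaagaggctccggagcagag
Notch3: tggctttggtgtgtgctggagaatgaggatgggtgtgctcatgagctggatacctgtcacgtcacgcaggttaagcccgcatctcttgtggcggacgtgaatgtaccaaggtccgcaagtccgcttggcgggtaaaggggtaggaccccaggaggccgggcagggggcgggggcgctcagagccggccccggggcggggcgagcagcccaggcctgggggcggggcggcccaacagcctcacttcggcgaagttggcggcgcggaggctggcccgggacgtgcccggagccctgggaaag
Flt1 and Eng hold the word at 2 places each and Tie1 at 1, and the letters are not in the windows of Cldn5 and Notch3. In Flt1 the matches begin 172 and 96 bases before the gene start, in Eng 128 and 82 and in Tie1 61 bases before it. Of the 33 members, 21 had a window in the RefSeq table, and 6 of these held AGGAAG: Flt1, Eng, Tie1, Emcn, Nos3 and Abcg2, all of them endothelial (6 of 13 endothelial and 0 of 6 mural windows). Of all 33469 windows in the table, 34.5% held it. The GC box GGGCGG, which does not overlap that word, was in 16 of the 21 windows and in 33.1% of all. A match is a description of the letters and says nothing of binding.

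Transporter genes of the barrier had a log2 fold change above 0 in 5 of 5, with a median of 0.18. Mfsd2a, the lipid transporter that holds down transcytosis in brain endothelium, was at 24.9, 22.4, 37.5, 27.3 and 25.9 CPM in untreated rats and at 28.7, 31.3, 31.3, 38.0 and 47.7 CPM in treated rats. Every RG2833 library was above 4 of the 5 untreated ones, and untreated replicate 3 lay within the RG2833 range. The means were 27.6 ± 5.84 and 35.4 ± 7.71 CPM (log2 fold change 0.36, SE 0.17, 95% interval -0.01 to 0.73; edgeR adjusted p = 0.841). Slc16a1, the lactate and ketone transporter MCT1, was at 39.6, 38.0, 37.1, 46.8 and 42.3 CPM in untreated rats and at 42.8, 43.8, 42.0, 51.1 and 53.2 CPM in treated rats. It is also made by oligodendrocytes and astrocytes, and it was the only endothelial-list gene whose lowest value was in untreated replicate 3. Its means were 40.8 ± 3.89 and 46.6 ± 5.17 CPM (log2 fold change 0.19, SE 0.09, 95% interval -0.01 to 0.39; edgeR adjusted p = 0.841).

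The other transporters had wide intervals around small differences. Slc2a1, the glucose transporter GLUT1, was at 134.7 to 251.2 CPM in untreated rats and 150.9 to 247.9 CPM in treated rats (fold change on the log2 scale 0.14, SE 0.19). The drug efflux pump Abcb1a was at 52.6 to 108.1 and 63.2 to 120.3 CPM (0.18, SE 0.22), and the efflux pump Abcg2 at 18.3 to 42.4 and 20.4 to 44.1 CPM (0.14, SE 0.26). The sign for Abcg2 turned to -0.07 without RG2833 replicate 5. With each library left out in turn, the estimates were 0.046 to 0.28 for Slc2a1, 0.020 to 0.35 for Abcb1a, 0.23 to 0.49 for Mfsd2a and 0.14 to 0.25 for Slc16a1. Among regulators, the endothelial transcription factors Sox17 and Sox18 had log2 fold changes of 0.13 (SE 0.25) and 0.32 (SE 0.30). Leaving out single libraries gave 0.15 to 0.65 for Sox18. Nos3, the endothelial nitric oxide synthase, had -0.03 (SE 0.25).

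The pericyte genes were divided, with 3 of 6 log2 fold changes above 0 and a median of -0.01. Notch3, the Notch receptor of mural cells, was at 21.9, 31.5, 53.4, 23.6 and 22.8 CPM in untreated rats and at 25.7, 32.8, 28.2, 43.4 and 44.0 CPM in treated rats (fold change on the log2 scale 0.18, SE 0.26, 95% interval -0.39 to 0.76; edgeR adjusted p = 0.950). Its high libraries were again untreated replicate 3 and RG2833 replicates 4 and 5, and leaving out untreated replicate 1 or untreated replicate 3 gave 0.086 or 0.48 in place of 0.18. Vtn, vitronectin, which brain pericytes secrete, was at 52.8 and 39.5 CPM in untreated replicates 2 and 3, at 18.0 to 23.0 CPM in the other 3 untreated rats, and at 21.3, 26.5, 20.2, 30.6 and 27.7 CPM in treated rats. Untreated replicates 2 and 3 were above all other libraries, and the log2 fold change of -0.29 (SE 0.28, 95% interval -0.91 to 0.33) was -0.01 without untreated replicate 2. Anpep, an aminopeptidase on pericytes, was likewise highest in untreated replicates 3 and 2, at 6.86 and 6.76 CPM against 2.42 to 4.91 elsewhere (log2 fold change -0.25, SE 0.32; -0.049 without untreated replicate 3). Pdgfrb, the receptor for PDGF-B, had a log2 fold change of 0.03 (SE 0.19), Rgs5, a G protein regulator used as a pericyte marker, 0.00 (SE 0.20), and Abcc9, a subunit of the pericyte potassium channel, -0.02 (SE 0.23). For these 3 genes the 95% intervals lie between -0.53 and 0.50 on the log2 scale.

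The smooth muscle genes did not all share 1 direction of log2 fold change, and all 3 were highest in untreated replicate 2. Tagln, the actin-binding protein transgelin, was at 20.9, 31.2, 18.4, 24.8 and 24.4 CPM in untreated rats and at 16.3, 20.6, 16.6, 20.4 and 18.7 CPM in treated rats. Untreated replicate 3 lay within the RG2833 range and the groups overlapped. The means were 24.0 ± 4.81 and 18.5 ± 2.03 CPM (log2 fold change -0.37, SE 0.14, 95% interval -0.67 to -0.07), and the edgeR adjusted p was 0.841. Leaving out each library in turn gave -0.45 to -0.26. Acta2, the smooth muscle actin, was at 7.10, 21.1, 14.1, 6.67 and 7.38 CPM in untreated rats and at 12.1, 10.9, 9.34, 14.8 and 14.2 CPM in treated rats. All RG2833 libraries were above 3 of the 5 untreated ones, while untreated replicate 2 was the highest of all, and the log2 fold change was 0.12 (SE 0.32; 0.48 without untreated replicate 2). Myl9, a regulatory myosin light chain, was at 7.91, 21.3, 13.1, 10.8 and 9.66 CPM in untreated rats and at 11.4 to 14.1 CPM in treated rats (fold change on the log2 scale 0.00, SE 0.23; 0.28 without untreated replicate 2).

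Both matrix genes had log2 fold changes above 0. Fn1, fibronectin, was at 90.3, 161.4, 144.3, 94.0 and 91.0 CPM in untreated rats and at 105.2, 127.8, 114.2, 179.3 and 208.8 CPM in treated rats. Untreated replicates 2 and 3 lay among the RG2833 values and the other 3 untreated libraries below all of them (log2 fold change 0.34, SE 0.24, 95% interval -0.18 to 0.86; edgeR adjusted p = 0.881). Col4a1, a chain of type IV collagen, was at 44.8 to 74.6 CPM in untreated rats and 52.1 to 68.9 CPM in treated rats (fold change on the log2 scale 0.07, SE 0.15). Leaving out each library in turn gave 0.18 to 0.49 for Fn1 and 0.0041 to 0.20 for Col4a1.

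**Figure D2:**
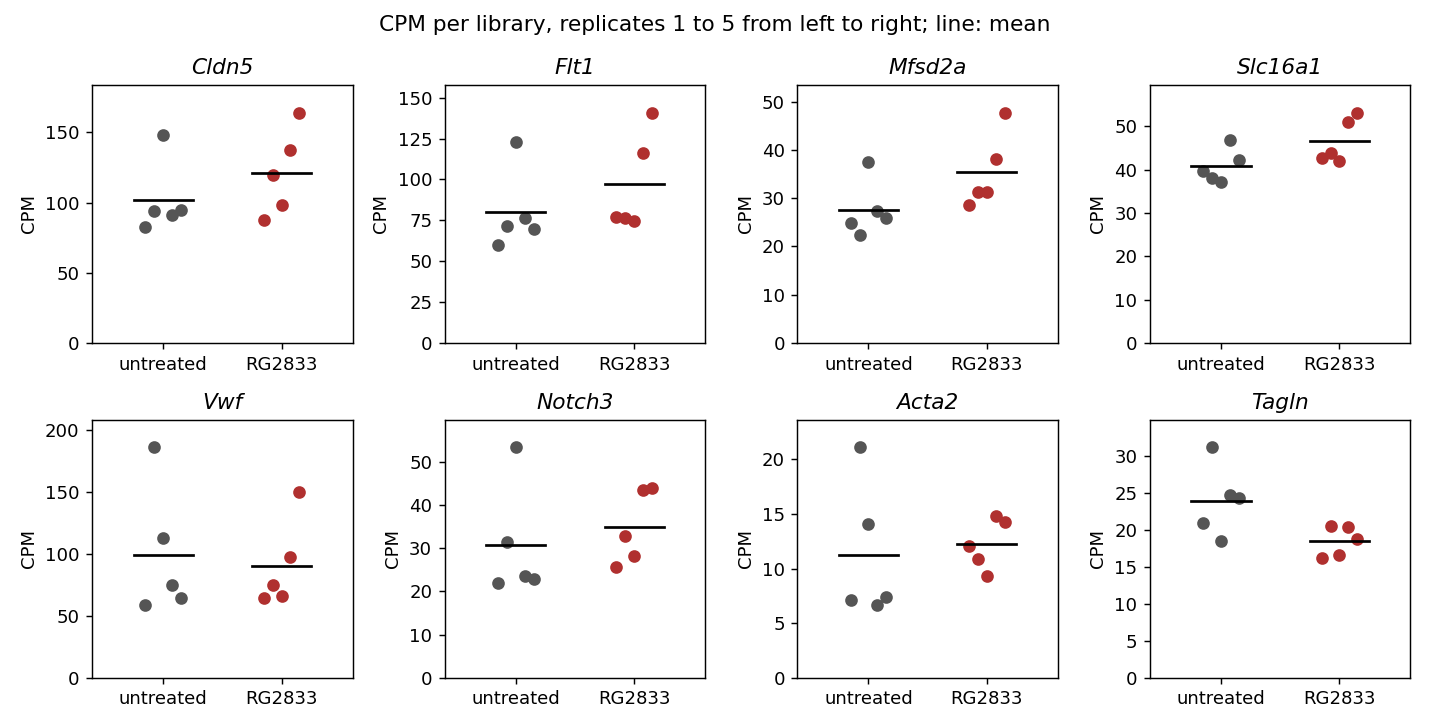
CPM (y axis, from 0) of 8 members in each untreated and RG2833 library (points, replicates 1 to 5 from left to right; lines are group means). In Cldn5 and Flt1 untreated replicate 3 sits at the level of RG2833 replicates 4 and 5, and in Notch3 it is above both. In Vwf, Acta2 and Tagln untreated replicate 2 is the highest, and the groups overlap in all 8.

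The median log2 fold change was higher for endothelial than for mural genes, and both medians moved when single libraries were left out. The median log2 fold change was 0.19 over 21 endothelial members, 17 of them above 0, and 0.00 over 9 mural members, 5 of them above 0. Of all genes 46.5% were above 0. The mural count was 1 of 9, with a median of -0.13, without untreated replicate 1, and 2 of 9 without untreated replicate 4, untreated replicate 5 or RG2833 replicate 5. In those fits 45.5% to 49.0% of all genes were above 0. As a summary per library, the mean log2 CPM of the mural members was subtracted from that of the endothelial members. This difference was 0.97, 0.53, 1.03, 0.94 and 0.97 in untreated replicates 1 to 5 and 0.99, 1.06, 1.05, 1.07 and 1.28 in RG2833 replicates 1 to 5. The low value of untreated replicate 2 and the high value of RG2833 replicate 5 stood apart, while the other 8 libraries lay between 0.94 and 1.07. The group means were 0.89 ± 0.20 and 1.09 ± 0.11 (SD, n = 5 each), a difference of 0.20, reduced to 0.11 by leaving out untreated replicate 2 and to 0.16 by leaving out RG2833 replicate 5. Leaving out untreated replicate 3 raised it to 0.24, and leaving out RG2833 replicate 1 raised it to 0.23. The groups overlapped over all 10 libraries but not when either of those libraries was left out, and no test was made of this summary, since its genes were chosen with results of these data known. Without the libraries rich in choroid plexus markers, 21 of 21 endothelial and 6 of 9 mural log2 fold changes were above 0. In that fit 45.4% of all genes were above 0. The endothelial and mural medians were 0.25 and 0.04, and 0 members had an adjusted p under 0.05. The members vary together, so 21 of 21 is not a count of independent genes.

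**Figure D3:**
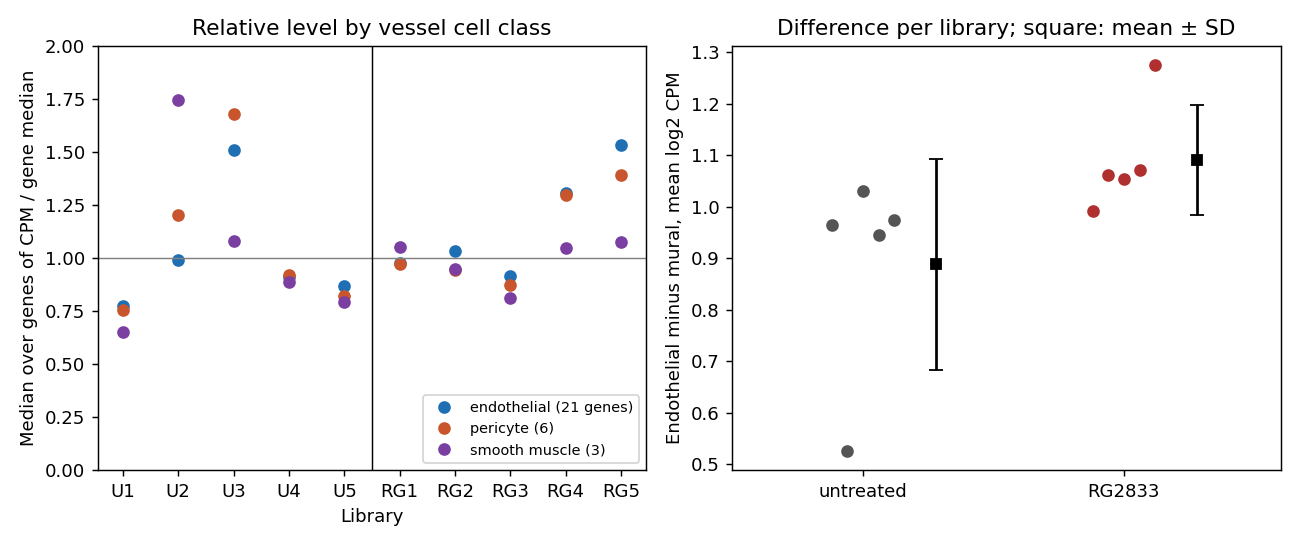
Left, the median over genes of CPM divided by each gene's own median over 10 libraries (y axis), for endothelial, pericyte and smooth muscle members in each library; right, the endothelial minus mural mean log2 CPM per library, with squares and bars for mean ± SD (n = 5). Untreated replicate 3 and RG2833 replicates 4 and 5 are high in endothelial and pericyte genes, and untreated replicate 2 is at 1.75 for smooth muscle but at 0.99 for endothelial genes.

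Individual libraries differed from each other by more than the group means did. With each gene set relative to its own median over the 10 libraries, the endothelial members had a median ratio of 1.51 in untreated replicate 3, 1.31 in RG2833 replicate 4 and 1.53 in RG2833 replicate 5. In the other 7 libraries the ratio ran from 0.78 in untreated replicate 1 to 1.03 in RG2833 replicate 2. For 15 of 21 endothelial and 3 of 6 pericyte members, the 3 highest libraries were exactly those 3; the endothelial exceptions were Ocln, Cdh5, Vwf, Kdr, Tie1 and Slc16a1. Untreated replicate 1 was the lowest library for 14 endothelial members. Pericyte members had ratios of 1.68, 1.299 and 1.39 in the same 3 libraries, and smooth muscle members only 1.08, 1.05 and 1.07. Untreated replicate 2 had another order, with 1.75 for smooth muscle, 1.204 for pericytes and 0.99 for endothelium. Within that library Vwf was at 2.48 times its median, Vtn at 2.13, Anpep at 1.96, Acta2 at 1.84, Myl9 at 1.75 and Cdh5 at 1.64, while Mfsd2a and Abcg2 were both at 0.75 and Itm2a at 0.83. In RG2833 replicate 1, the other library rich in choroid plexus markers, Ocln was at 1.346 times its median and Myl9 at 1.16, while Vwf and Vtn were both at 0.86.

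**Figure D4:**
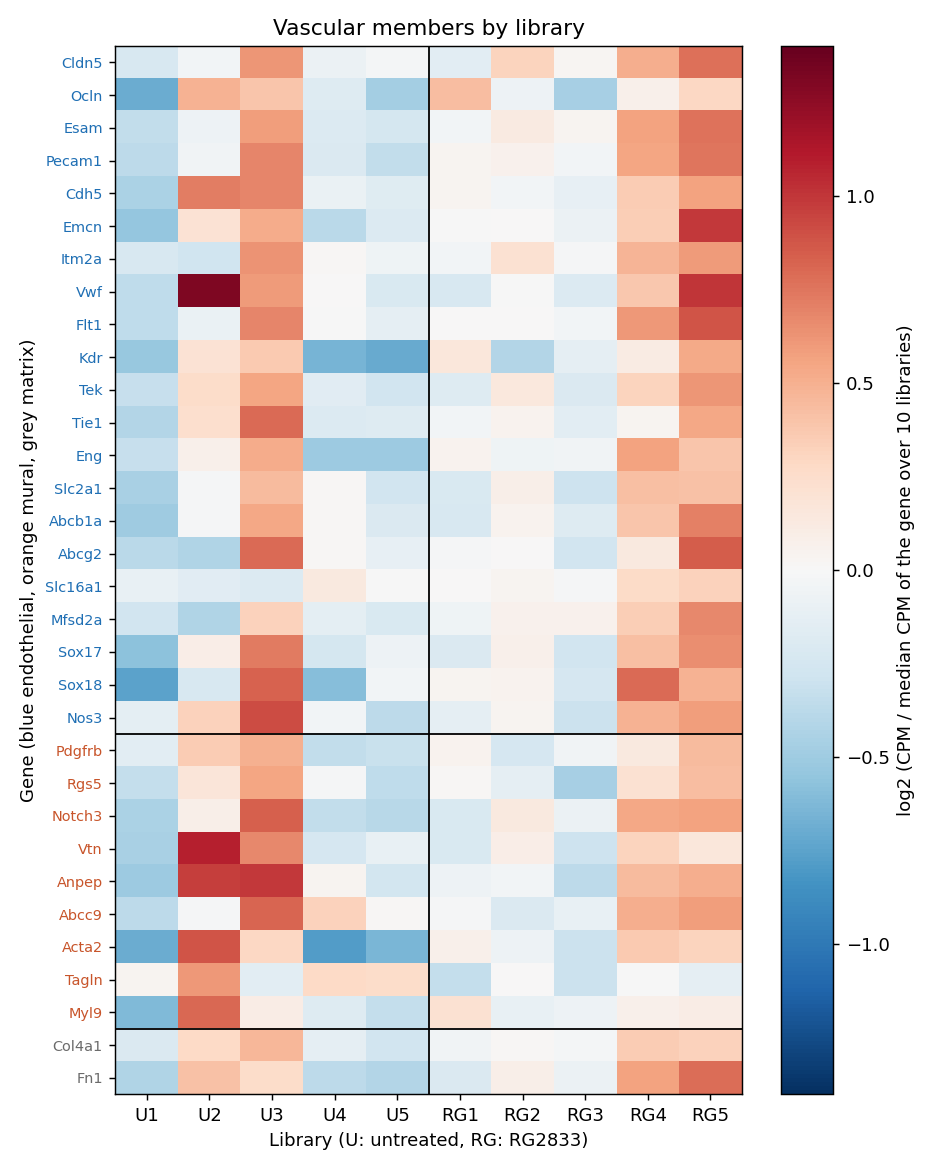
Log2 of CPM over the gene's median CPM in 10 libraries (colour), for 32 members (rows, grouped by class) in 5 untreated (U1 to U5) and 5 RG2833 libraries (RG1 to RG5). Columns U3, RG4 and RG5 are raised across nearly all endothelial and pericyte rows, with Slc16a1 lower in U3, and U2 is raised in Vwf, Cdh5, Vtn, Anpep and the smooth muscle rows.

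How closely the members followed each other was described by the Pearson correlation of log2 CPM after the group means were taken off, over 10 libraries that share depth and tissue composition across genes. The median over pairs was 0.82 within endothelium (210 pairs), 0.81 within pericytes (15 pairs) and 0.81 between endothelium and pericytes (126 pairs). It was 0.46 among the 3 smooth muscle genes and 0.32 between endothelium and smooth muscle, against 0.00 over all pairs of tested genes. The median among the smooth muscle genes was 0.75 without untreated replicate 3 and RG2833 replicate 5, and it turned to -0.24 without untreated replicate 2 and RG2833 replicate 1. When untreated replicate 3 and RG2833 replicate 5 were left out, the medians were 0.65 within endothelium, 0.70 between endothelium and pericytes and 0.60 between endothelium and smooth muscle. When untreated replicate 2 and RG2833 replicate 1 were left out, they were 0.93, 0.90 and 0.82. Slc16a1 (median with endothelial genes 0.20) and Tagln (-0.06) followed the endothelial members least.

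The number of members near the threshold depended on untreated replicate 3, the highest untreated library for most endothelial members. Without it, 10 of 32 members had an unadjusted p under 0.05, where 14.2% of all genes did: Cldn5, Esam, Pecam1, Itm2a, Flt1, Eng, Mfsd2a, Sox18 and Notch3 were higher in RG2833 and Tagln was lower. The smallest edgeR adjusted p among the members was then 0.28, so 0 passed. The median log2 fold change without it was 0.40 for endothelial and 0.16 for mural members. Without RG2833 replicate 5 the medians were 0.10 and -0.11, and 14 of 21 endothelial members were above 0, where 49.0% of all genes were.

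Of the other cell types, astrocyte and microglia markers had the same 3 highest libraries as most endothelial genes, and the other 5 lists had other libraries among their 3 highest. Summed CPM of 10 microglia markers was 1126 in untreated replicate 3, 857 in RG2833 replicate 4 and 914 in RG2833 replicate 5, against 612 to 740 in the other 7 libraries. Summed CPM of 10 astrocyte markers was 11419, 12333 and 12535 in those 3 libraries and 7299 to 10807 in the other 7. Its range was 7299 to 11419 in untreated and 8471 to 12535 in RG2833 rats. For these markers 10 of 10 log2 fold changes were above 0, where 46.5% of all genes were. Their median was 0.32, against 0.19 for the endothelial members. Fgfr3 (0.52, SE 0.20) and Gja1 (0.32, SE 0.12) had an edgeR unadjusted p under 0.05, where 5.66% of all genes did. The count above 0 was 7 of 10 for microglia, 2 of 10 for oligodendrocyte, 2 of 11 for neuron, 7 of 13 for choroid plexus, 2 of 13 for fibroblast and meningeal and 0 of 3 for red blood cell markers, and 0 genes of these 7 lists had an edgeR adjusted p under 0.05. Summed CPM of 11 neuron markers was lowest in untreated replicate 3, at 7410, and ran from 8138 to 9623 in the other untreated and 8215 to 9876 in RG2833 libraries. Within that list Map2, singled out after its values were seen, was at 1657 CPM in untreated replicate 3 against 860 to 1176 CPM in the other untreated rats. In RG2833 replicates 1 to 5 Map2 was at 1172, 1218, 1625, 1893 and 2044 CPM. Summed CPM of 10 oligodendrocyte markers was 7425 CPM in untreated replicate 3 and 16318 in RG2833 replicate 5, and 8656 to 14566 in the rest. Summed CPM of 13 markers of fibroblasts and meninges was 1896 CPM in untreated replicate 2 and 1313 in RG2833 replicate 1, against 232 to 412 in the others. Plvap, a marker of fenestrated vessels named after its values were seen, was at 10.1 and 9.36 CPM in those 2 libraries and at 1.93 to 3.32 CPM in the rest. The 3 red blood cell markers that passed the filter summed to 10.3 to 57.7 CPM in untreated rats and 12.4 to 22.9 CPM in treated rats. In none of these 7 lists was a marker found in the table at 0 in every library, and the part of other cell types in the vascular values was not tested.

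**Figure D5:**
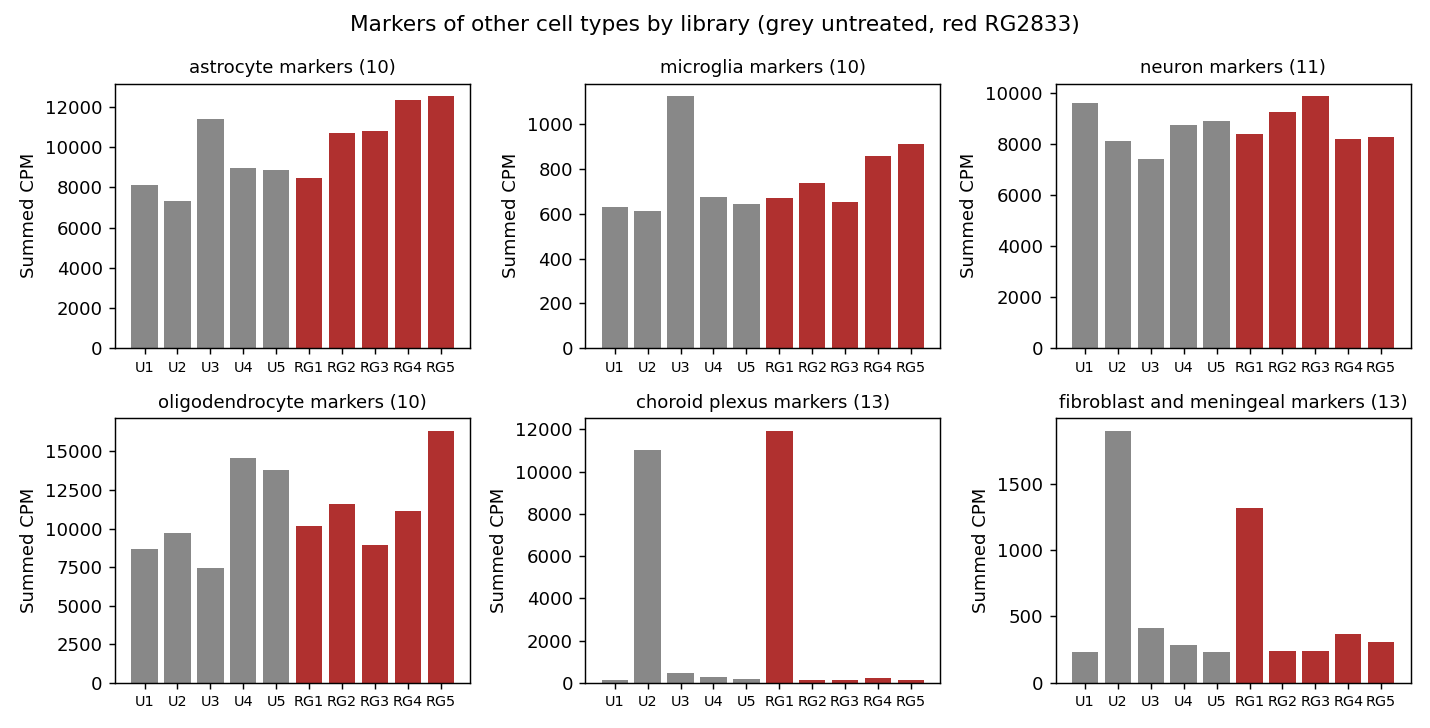
Summed CPM (y axis, from 0) of marker genes of 6 other cell types in each untreated (U1 to U5) and RG2833 (RG1 to RG5) library; the number of genes summed is in brackets. Astrocyte and microglia sums are high in U3, RG4 and RG5, and choroid plexus and fibroblast sums are high in U2 and RG1.

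Related vascular genes gave 0 adjusted p under 0.05 in each of 8 lists. Of 19 ligands, such as VEGF and angiopoietin genes, 0 had an unadjusted p under 0.05 and the median log2 fold change was 0.01. Of 31 further receptors and target genes there was 1, the apelin receptor gene Aplnr, at 5.91 ± 1.58 CPM in untreated rats and 3.58 ± 1.10 CPM in treated rats (fold change on the log2 scale -0.72, SE 0.24; edgeR adjusted p = 0.841). Of 16 Wnt and beta-catenin genes, the pathway that induces and keeps the barrier, 12 had log2 fold changes above 0 with a median of 0.10, where 46.5% of all genes were above 0, and 2 had an unadjusted p under 0.05, where 5.66% of all genes did. Tspan12, a co-receptor component for Norrin, was at 50.1, 42.8, 68.0, 60.1 and 47.5 CPM in untreated rats and at 56.5, 70.0, 65.2, 73.8 and 78.6 CPM in treated rats (fold change on the log2 scale 0.36, SE 0.13). Wnt7b, a Wnt ligand that neural cells supply to endothelium, was at 30.2, 19.1, 26.5, 18.7 and 21.1 CPM in untreated rats and at 24.5, 30.2, 27.1, 34.8 and 34.2 CPM in treated rats (0.38, SE 0.15). The groups overlapped in both genes and the adjusted p of both was 0.841.

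The remaining lists showed few genes near the threshold, and 5.66% of all genes had an unadjusted p under 0.05. Of 26 further barrier transporter and transcytosis genes, 3 had an unadjusted p under 0.05. Slc3a2, the heavy chain of the large amino acid transporter, had a log2 fold change of 0.21 (SE 0.08), Slco1c1, a thyroid hormone carrier of barrier endothelium and choroid plexus, 0.37 (SE 0.16), and Abcc5, an efflux pump, -0.15 (SE 0.06). Of 22 basement membrane genes there were 2, the laminin chain gene Lama1 (-0.82, SE 0.35) and P4ha1 (0.19, SE 0.08), a prolyl hydroxylase that acts on collagen. Lama1 was at 10.4 CPM in untreated replicate 2 and at 2.175 to 6.75 CPM in the other 9 libraries. There were 0 of 13 tight junction genes, 0 of 7 leukocyte adhesion genes and 0 of 25 further pericyte and smooth muscle genes, with median log2 fold changes of 0.04, -0.01 and -0.05.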

How the data were processed

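Expression was measured by strand-specific mRNA sequencing, per the labels' protocols. The deposited expected counts are RSEM estimates per gene; per the submitters' processing notes the tools were bcl2fastq 2.17, Bowtie2 2.1.0, RSEM 1.2.15 and edgeR, with build rn6, and their settings and annotation are not given in the sources used here. The authors also deposited TMM-normalized CPM as a signal per gene: in every library 100% of its values were whole multiples of 1 step (within 0.05 reads), and the recovered reads equalled the rounded expected counts for 100% of 17164 genes. A test on those reads gave 0 genes called, as did the rounded counts.

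Counts were rounded and tested with edgeR 4.0.16 in R 4.3.3: filterByExpr (minimum count 10, total 15; 12161 genes kept), TMM, robust quasi-likelihood F test, Benjamini-Hochberg adjustment over all 12161 genes, threshold 0.05. Standard errors came from the F statistic and intervals from its degrees of freedom. Log2 CPM used a prior count of 2. The deposited CPM was 0.987 to 1.03 times the CPM used here (median over genes, by library). DESeq2 1.42.0 was an alternative. The fit was tested on simulated data. Each library is labelled as 1 rat, so p-values measure the spread between rats. All members are named; of related lists, up to 3 genes at an unadjusted p under 0.05. The members and lists were chosen with earlier results of these data known. Promoter windows of GRCr8 are from RefSeq, matched by symbol.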

Additional observations from a re-analysis of the deposited data

Results flagged for a closer look

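In 8 of 64 sets of 5 libraries (each of 32 members in each group), the highest or the lowest library was separated from the next by more than 0.71 of the range of its group, where chance gives about 3.2 over both ends. In all 8 it was the highest. In untreated replicate 3, Cldn5 was at 148.0 CPM against 82.7 to 94.7 in the other untreated libraries (gap 0.816 of the range), Esam at 29.5 against 15.5 to 18.7 (0.771), Pecam1 at 36.2 against 17.4 to 21.7 (0.774), Itm2a at 86.1 against 45.8 to 56.3 (0.741), Flt1 at 122.9 against 59.8 to 76.4 (0.737) and Abcg2 at 42.4 against 18.3 to 24.9 (0.727). The others were in RG2833 replicate 5, where Tie1 was at 41.4 CPM against 25.8 to 29.5 in the other RG2833 libraries (0.764) and Abcg2 at 44.1 against 20.4 to 26.9 (0.724). These genes vary together, so the 8 are not separate events.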

How the results depend on the processing

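Under no alternative run did a member have an adjusted p under 0.05; 0 of all genes did in each edgeR fit and 7 in DESeq2. The members at an unadjusted p under 0.05 numbered 1 with all libraries and with median-of-ratios size factors or DESeq2. They numbered 2 without the filter (Mfsd2a and Tagln), and from 1 to 10 when each library was left out in turn. Of all genes, 5.66% had such a p with all libraries, 5.53% with median-of-ratios size factors and 6.16% in DESeq2. The share was 5.28% without the filter and 3.07% to 14.2% with single libraries left out. Leaving out single libraries changed the sign of the log2 fold change for 13 members, with ranges of -0.028 to 0.26 for Ocln, -0.070 to 0.17 for Pdgfrb, -0.11 to 0.16 for Rgs5, -0.018 to 0.48 for Acta2, -0.13 to 0.28 for Myl9, -0.16 to 0.12 for Cdh5, -0.39 to 0.22 for Vwf, -0.14 to 0.22 for Tie1, -0.15 to 0.21 for Nos3, -0.13 to 0.18 for Abcc9, -0.015 to 0.28 for Tek, -0.074 to 0.41 for Abcg2 and -0.018 to 0.36 for Sox17. Without the 2 libraries richest in choroid plexus markers the log2 fold change turned to 0.15 for Cdh5, 0.31 for Vwf, 0.050 for Tie1, 0.057 for Nos3 and 0.042 for Vtn. The member at an unadjusted p under 0.05 was then Fn1 in place of Tagln, where 4.90% of all genes had such a p. Scaling, the filter and the reads recovered from the CPM (this last added after the data were seen) turned no member's sign.

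With the replicate number of the titles as a replicate block, 2 members (Slc16a1 and Tagln) had an unadjusted p under 0.05. Of all genes 401 (3.30%) did. The log2 fold change with the block was 0.020 for Cdh5, 0.040 for Tie1, 0.0047 for Nos3 and 0.0030 for Abcc9, opposite in sign to the fit without it. The rats share only a number: the correlation of same-numbered libraries' deviations from their group means ran from -0.49 to -0.03, and 0 of 10 libraries correlated best with their own number. In these libraries a member's 95% interval spans from 0.40 (Slc16a1) to 1.53 (Vwf) on the log2 scale, which limits the differences that could be seen.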
